A study of Caenorhabditis elegans with 609 samples.

Results

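The MY strains are wild Caenorhabditis elegans strains whose names start with the laboratory code MY followed by a number. The code was the only criterion for membership, and 14 of the 208 strains carried it, with 41 cultures beside 568 cultures of strains with other codes. The labels used here give no sampling place, so the strains are called by their code and not by a country.

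The study sequenced polyadenylated RNA from whole young adult hermaphrodites of wild strains, grown at 20 °C on agar plates with Escherichia coli OP50 and harvested once the first embryo was seen. The MY strains were MY1, MY10, MY16, MY18, MY23, MY518, MY772, MY795, MY920, MY2147, MY2212, MY2573, MY2585 and MY2713, and they were compared with the 193 strains with other codes and at least 2 cultures. The labels name no transgene and no treatment, and each strain stands for its own genotype. N2, the reference strain that the paper describes as laboratory-adapted, is among the 193 with 3 kept cultures. The study's selection rule on distances between cultures was run again here, and 38 MY cultures and 521 other cultures remained. The mean over the kept cultures was the value of a strain. Estimated counts per culture totalled 18955993 to 42145780 (median 28794478) in kept MY cultures and 15461168 to 280262722 (median 28915917) in the others. Levels are given as log2(normalized TPM + 0.5), so a gene listed at 0 TPM stands at -1.0, and differences are MY strains minus other strains on that scale.

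A C. elegans hermaphrodite first makes sperm and then switches to oocytes, so an animal around its first eggs still carries transcripts of the sperm program while oocytes, eggshell and embryos come to dominate. The major sperm proteins drive sperm crawling and signal to oocytes, and their genes form a large family of near-identical copies. Cuticle collagens are made in waves around each molt. Levels of such genes in whole animals therefore move with the exact stage of a culture, and in bulk samples fewer cells of a type and less RNA per cell cannot be told apart.

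Sperm genes stood lower in most MY strains than in most other strains. The mean level over the 71 measured sperm genes was 1.86 in MY2585, 2.27 in MY518, 2.43 in MY2147, 2.61 in MY772, 2.88 in MY795, 3.05 in MY1 and 3.10 in MY2713. It was 3.38 in MY23, 3.39 in MY10, 4.0 in MY16, 4.13 in MY18, 5.19 in MY920, 5.44 in MY2212 and 5.91 in MY2573. The other strains ran from 1.04 over a median of 4.49 to 6.11, so 11 of 14 MY strains lay below that median while MY920, MY2212 and MY2573 lay near the top. The group means were 3.55 ± 1.24 in MY strains (SD, n = 14) and 4.31 ± 1.12 in the others (SD, n = 193). The difference of -0.76 had a permutation p of 0.0154, or 0.0589 after Benjamini-Hochberg adjustment over 5 scores, and so missed the threshold of 0.05.

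**Figure D1:**
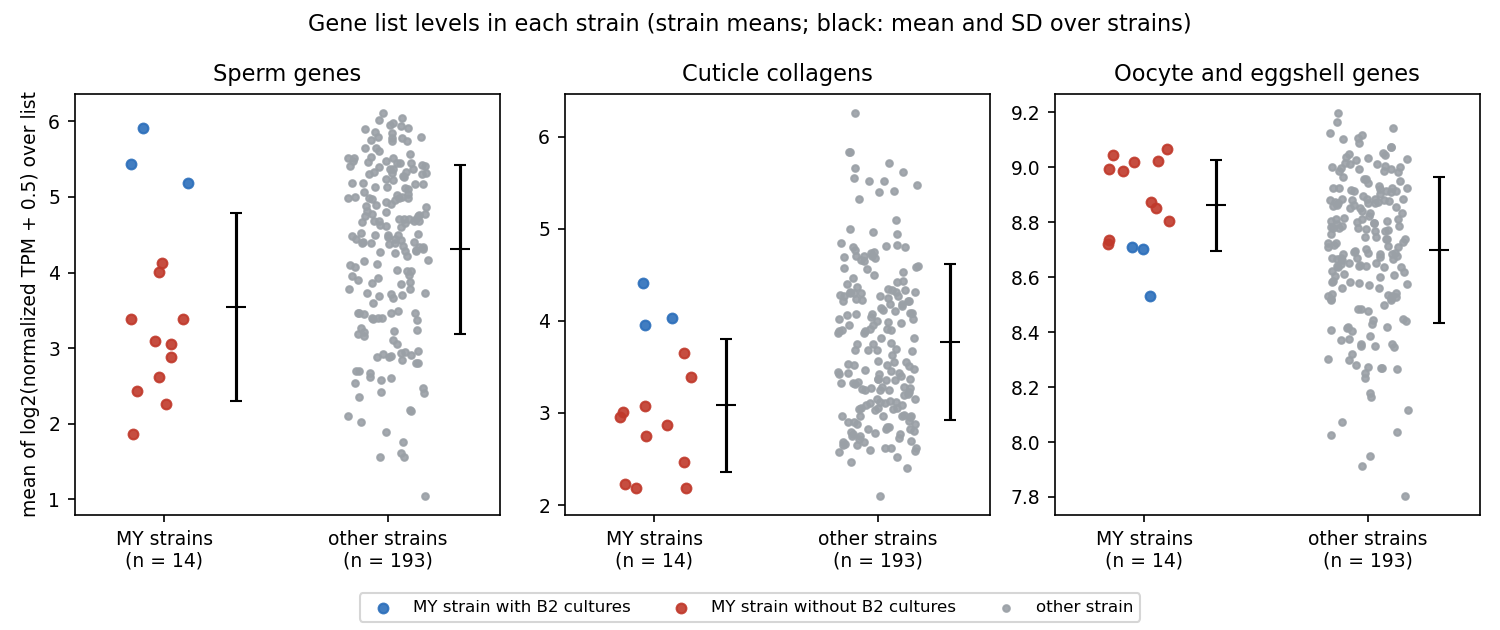
Mean level of sperm genes, cuticle collagens, and oocyte and eggshell genes in each strain, as the mean of log2(normalized TPM + 0.5) over the list (points: strain means; black: mean and SD over strains). The 3 MY strains with cultures coded B2 (blue) stand above the other 11 (red) for sperm genes, at 5.19 to 5.91 against 1.86 to 4.13, and above them for collagens.

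Oocyte and eggshell genes stood the other way. Their mean level was 8.86 ± 0.17 in MY strains (SD, n = 14) against 8.70 ± 0.27 in the others (SD, n = 193), higher than the median of the others in 10 of 14 MY strains. Early embryonic genes averaged 0.29 ± 0.45 in MY strains and 0.05 ± 0.42 in the others, and germ line genes 7.02 ± 0.08 in MY strains and 6.95 ± 0.12 in the others. Permutation tests over 100000 resamples gave adjusted p = 0.0589, 0.0629 and 0.0589 for these 3 scores. The vitellogenins, the yolk proteins made in the adult intestine, were at 10.5 ± 0.28 in MY strains and 10.5 ± 0.40 in the others (adjusted p = 0.530). None of the 5 scores passed the threshold. With the sequencing pool regressed out 4 of the 5 did, at adjusted p = 0.0276 for sperm, 0.0165 for oocyte, 0.0473 for embryonic and 0.0165 for germ line genes in permutation tests.

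These levels moved with a field of the culture names that takes the codes B1 to B9 and whose meaning the labels do not state. Of the kept MY cultures, 42.1% carried B6, against 9.98% of the other cultures. The MY strains with B2 cultures were MY920, MY2212 and MY2573, the strains with the most sperm transcripts. Among other strains, sperm genes averaged 4.84 in B2 cultures, 4.98 in B5 cultures and 3.67 in B6 cultures. Within a code the difference of MY strains from the others was 0.68 in B2 cultures (3 MY strains), 0.25 in B5 cultures (4 MY strains), -0.35 in B1 cultures (5 MY strains) and -1.12 in B6 cultures (8 MY strains). In the 4 codes with 1 MY strain each it was 0.16 (B3), -0.91 (B4), -0.88 (B8) and -1.54 (B9). The sign thus changed from code to code, and the values in B2 and B5 rest largely on MY920, MY2212 and MY2573, which had cultures in both. Cultures of 10 MY strains carried 2 different codes, and those of MY1, MY10, MY772 and MY795 a single one. Over the 6 sequencing pools with at least 2 MY strains, the same difference ran from -2.52 to 1.31 and was negative in 4. Pools were uneven between the groups too. Pool 01 held 21.1% of the kept MY cultures and 8.83% of the others, pool 07 2.63% and 12.9%, and pool 08 7.89% and 15.4%. The culture names also give a year, which was not fitted.

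Across genes, limma on strain means called 1076 genes higher and 2598 lower in MY strains of 16232 tested, at an adjusted p under 0.05. That is 6.63% of genes higher and 16.0% lower, beside 7688 genes at an unadjusted p under 0.05, and the median difference over all genes was -0.10. The split depended on the scaling, because called genes were higher in MY strains for 29.3% of calls here, for 52.9% with raw TPM, and for 56.0% with edgeR on size factors of the DESeq2 kind. The number of calls also hung on single strains. Without MY2585 1 gene was higher and 8 were lower, without MY518 91 and 327, without MY795 230 and 654, without MY772 241 and 652, and without MY10 321 and 810. It rose to 1784 and 4476 without MY2212, to 2103 and 5165 without MY2573, and to 1674 and 4212 without MY920. Leaving out MY1 gave 674 and 1570, MY2147 616 and 1716, and MY2713 642 and 1743. Strains are related by descent, which the test does not model, so its p-values treat them as independent.

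**Figure D2:**
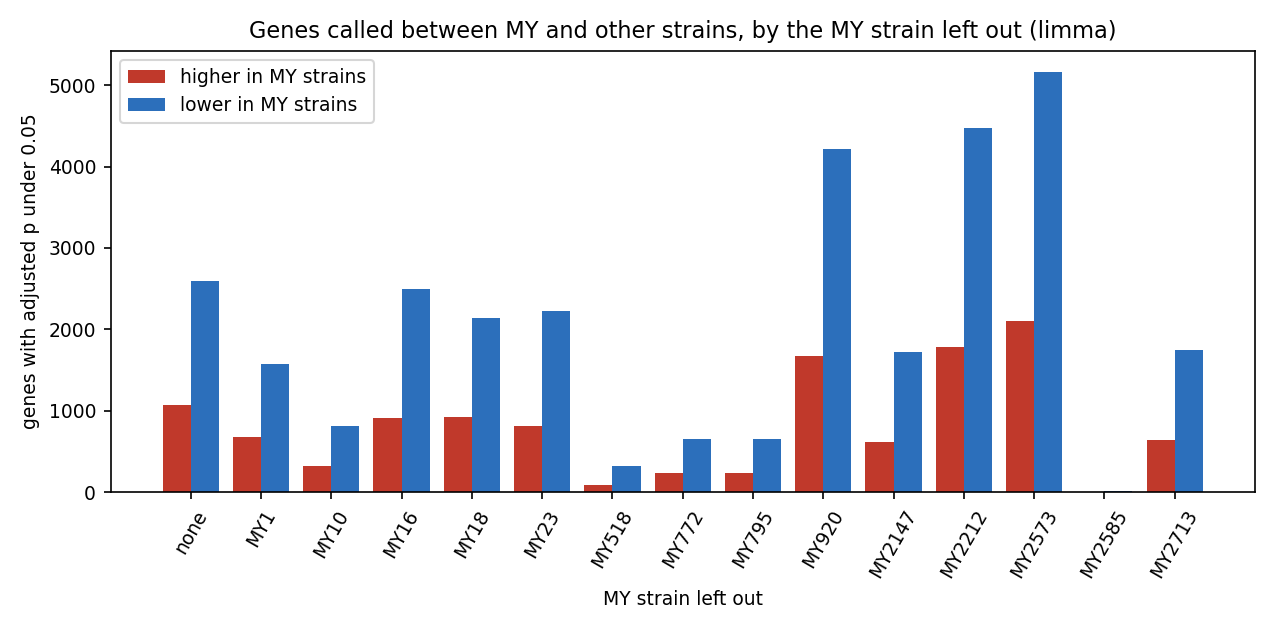
Number of genes with an adjusted p under 0.05 between MY and other strains (limma), with all MY strains and with each left out in turn (red: higher in MY strains; blue: lower). The counts run from 9 in all without MY2585 to 2103 higher and 5165 lower without MY2573.

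With the B code as a fixed effect and strain as a random block, 246 genes (1.52%) were higher and 734 (4.52%) lower, and 893 of them had been called in the same direction without it. With the sperm, yolk, oocyte and embryonic scores as covariates, 8 genes (0.0493%) were higher and 57 (0.351%) lower, of which 64 had been called without them. Only among B6 cultures, with 8 MY strains against 31 others, limma called 0 genes, with 5467 at an unadjusted p under 0.05 and a smallest adjusted p of 0.0565. Counts of list members below are read against these shares. Without MY2585 no gene of any list below was called.

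The largest decrease was in msp-50, a major sperm protein gene. It had 3.36 ± 2.84 in MY strains (SD, n = 14) against 5.62 ± 2.87 in the others (SD, n = 193), a difference of -2.26 ± 0.79 (SE; limma adjusted p = 0.0340). It ran from -0.53 over a median of 3.92 to 9.01 in MY strains and from -0.72 over 6.34 to 9.99 in the others, so the groups overlapped over nearly all of their ranges. msd-2, a sperm gene with a major sperm protein domain, was listed at -1.0 in every kept culture of MY10, MY16 and MY23. Its other MY values were 1.42 in MY2585, 1.92 in MY518, 2.80 in MY772, 3.03 in MY2147, 3.14 in MY795, 3.87 in MY1, 4.24 in MY2713, 5.02 in MY18, 6.48 in MY920, 6.88 in MY2212 and 7.42 in MY2573. Of the other strains 1 lay below 0, and their median was 5.68. The difference of -2.18 ± 0.47 (SE; limma adjusted p = 0.00888) was called with the B code alone and with the scores alone as well, but not without MY2585.

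In the whole sperm list 9 of 71 genes were lower and 0 higher, 12.7% lower against 16.0% of all genes, with a median difference of -0.81 against -0.10 over all genes. With the B code 5 were lower, beside 4.52% of all genes. With the scores 0 were, but the sperm score is the mean of these same 71 genes. That fit takes out their shared shift by construction. The count moved with the setting, to 2 with edgeR and TMM, 1 with edgeR on DESeq2 size factors, 3 with DESeq2, 5 with raw TPM, 5 with a pseudocount of 1 and 17 with a pseudocount of 0.1. Of all 16232 genes 2557, 2339, 2828, 1572, 2317 and 3242 were lower in these fits, in that order. msp-19 (-1.74) and msp-76 (-1.57) were among the 9, and near-identical copies can share reads, so values of single family members are uncertain. WBGene00023395 (-2.21), C33F10.11 (-1.69) and C17F3.1 (-1.63), outside the list, were among the largest decreases overall. The pseudogene WBGene00023395 was split among MY strains. It lay below 0 in 7 of 14 MY strains and in 23 of 193 others (11.9%), and reached 4.67 in MY23. Both nspa-7 loci, sperm-enriched peptide genes, had identical values and a difference of -1.73. A histone and an Argonaute gene were lower too, with his-70 at -1.11 and alg-3, an Argonaute of spermatogenesis, at -1.01 (limma adjusted p = 0.0421 and 0.0417). The genes his-70, alg-3 and C17F3.1 missed the threshold with the B code (limma adjusted p = 0.0631, 0.0670 and 0.106). In strains with no B2 culture (11 MY strains) 60 of 71 sperm genes were lower, where 5876 of all 16232 genes were lower. That restriction was chosen after the values were seen and drops the 3 MY strains with the highest sperm levels, so more lower sperm genes follow from how it is built.

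Cuticle collagens, the structural proteins of the worm's exoskeleton, were lower for 60 of 146 measured genes and higher for 1, or 41.1% lower against 16.0% of all genes. Their median difference was -0.66. col-88 had 0.01 to 5.43 (median 2.09) in MY strains against 0.28 to 7.70 (median 3.22) in the others, a difference of -1.45 ± 0.49 (SE; limma adjusted p = 0.0300). col-77 (-1.45) and col-138 (-1.43) followed it closely. With the B code 5 of 146 were lower, beside 4.52% of all genes, and the 3 named genes missed the threshold. With the scores as covariates 0 were lower. Mean collagen level was 2.19 in MY2585, 2.19 in MY518 and 2.23 in MY2147, and 3.96 in MY2212, 4.03 in MY920 and 4.41 in MY2573, the same strains at both ends as for sperm genes.

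Neuronal and muscle genes were lower in company with them. Of 126 measured neuropeptide and insulin genes, which encode secreted signals, 80 were lower and 0 higher (63.5% against 16.0% of all genes, median difference -0.47). With the B code 21 were lower, beside 4.52% of all genes, and with the scores 2, beside 0.351%. flp-7, an FMRFamide-like peptide gene, averaged 1.01 ± 0.70 in MY strains against 1.84 ± 0.84 in the others (SD), below the median of the others in 13 of 14 strains, and nlp-18 (-0.92) and nlp-61 (-0.80) were the other leading members. All 3 missed the threshold with the B code (limma adjusted p = 0.110, 0.118 and 0.104). Of 8 neuronal markers 5 were lower, among them egl-21, a carboxypeptidase that processes neuropeptides (-0.56), the synaptic genes rab-3 (-0.48) and snt-1 (-0.44). Muscle had 4 of 6 markers lower, with the troponin gene tnt-4 at -0.72, the myosin heavy chain gene unc-54 at -0.66 and the paramyosin gene unc-15 at -0.60. In the intestine 3 of 6 were lower, namely ifb-2 (-0.45), the esterase gene ges-1 (-0.36) and the actin gene act-5 (-0.32). With the B code 2 neuronal, 0 muscle and 1 intestinal marker were lower. Only 2 of 8 male markers were measured, and cwp-4 was near 0 TPM at -0.62 ± 0.18 in MY strains and -0.45 ± 0.25 in the others (SD; limma adjusted p = 0.0526).

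Genes of the maternal and early embryonic programs stood on the other side. Of 13 oocyte and eggshell genes 4 were higher, with oma-2, a regulator of oocyte maturation, at 0.23, the chitin synthase gene chs-1 at 0.22 and the translational regulator puf-5 at 0.21. That is 30.8% against 6.63% of all genes. DESeq2 called 8 of the 13 higher, beside 2942 of all 16232 genes (1944 with edgeR and TMM). Among the 12 early embryonic genes vet-2 was called (0.42), or 8.33%, and all 12 differences were positive. Fitting the B code left 0 of 13 and 0 of 12 called, with limma adjusted p = 0.0566 for oma-2, 0.0630 for chs-1, 0.0615 for puf-5 and 0.0630 for vet-2. No germ line marker of 8 passed the limma test (3 at an unadjusted p under 0.05; 4 called higher by edgeR with TMM and 5 by DESeq2), and glp-1, the Notch receptor of germ line stem cells, came closest (0.13, limma adjusted p = 0.0516). No vitellogenin of 6 passed either (1 at an unadjusted p under 0.05; 0 by edgeR and DESeq2; vit-3 0.45, limma adjusted p = 0.104). The largest increases overall were in clec-266 (1.12), C27A7.8 (1.11), vet-1 (0.97), F45D11.5 (0.95), dpy-14 (0.89), fbxa-19 (0.88), F23D12.4 (0.87), clc-23 (0.87), clec-196 (0.85), C04C3.4 (0.85), cyp-35A4 (0.84) and Y71A12B.11 (0.84). Of these 12, 7 were called with the B code, and F23D12.4 and fbxa-19 had the smallest adjusted p with the B code, at 0.00253 and 0.00112 in limma.

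F-box proteins pair targets with the ubiquitin machinery, and their genes form large families in this worm. F-box B and C genes were higher for 21 of 111 measured genes and lower for 0 (18.9% against 6.63% of all genes, median difference 0.17), led by fbxc-51 (0.61), fbxc-18 (0.46) and fbxb-51 (0.42), and 2 were higher with the B code. The excess over all genes depended on the tool. Higher members were 6 of 111 with edgeR and TMM, 12 with edgeR on DESeq2 size factors and 8 with DESeq2, beside 1944, 2972 and 2942 of all 16232 genes, so in these 3 fits the share of the list lay below that of all genes. Of 118 F-box A genes 4 were higher (3.39%) and 10 lower (8.47%), both smaller shares than the 6.63% and 16.0% of all genes. fbxa-19 was one that rose. It stood at 0.35 to 1.14 in 12 MY strains and at -1.0 in MY23 and -0.96 in MY518, whereas 128 of the 193 other strains (66.3%) lay below 0 and their median was -1.0. The difference was called with the B code alone and with the scores alone, and within the 4 B codes with at least 2 MY strains it was positive each time (0.34 to 1.38). fbxa-31 (-0.71) was likewise called in each of these fits, and fbxa-74 (-0.73) with the B code alone.

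Defense and detoxification families lay on both sides of the shares over all genes, 6.63% higher and 16.0% lower. C-type lectins had 3 of 137 genes higher and 17 lower, a smaller share than of all genes, with clec-117 at -0.94. Among lysozymes, saposins and antimicrobial peptides 19 of 70 were lower (27.1%) and 0 higher, led by fipr-6 (-1.21), fipr-1 (-0.75) and abf-6 (-0.69). The p38 immune pathway list had 1 of 16 lower, the kinase gene sek-1 (-0.23). The pals family, which responds to intracellular infection, had 1 of 23 higher, pals-40 (0.61), and MATH and BTB domain genes 5 of 76 higher (6.58%) and 1 lower, including btb-11 (0.58), math-44 (0.49, but -0.37 under DESeq2) and bath-38 (-0.31). Their list medians, -0.01 and -0.02, changed sign under other scalings. Cytochrome P450 genes had 3 of 67 higher and 3 lower, among them cyp-35A4 (0.84), cyp-32B1 (-0.64) and cyp-25A3 (-0.34). Of 107 UDP-glucuronosyl and glutathione transferase genes 24 were lower (22.4%) and 0 higher, led by gst-10 (-0.76), gst-6 (-0.59) and gst-32 (-0.58). Lower with the B code were 8 lectins, 5 lysozyme, saposin and antimicrobial peptide genes, 11 transferase genes and 0 genes of the p38 list, beside 4.52% of all genes.

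The list of insulin pathway genes and stress genes included ftn-1, the ferritin gene, which was at -1.0 in MY518. ftn-1 averaged 1.65 ± 1.07 in MY strains against 2.96 ± 1.16 in the others (SD), a difference of -1.31 ± 0.32 (SE; limma adjusted p = 0.0120). dod-3 (-1.24) was below the median of the others in 13 of 14 MY strains, and nlp-29, an antimicrobial peptide gene of the skin, fell by 0.76. In all 6 of the 21 genes of that list were lower, and 4 with the B code. Of 11 inducible heat shock genes hsp-17 was lower (-0.42, but limma adjusted p = 0.0624 with the B code), and the median of that list, 0.04, changed sign under edgeR and DESeq2. Nuclear hormone receptors were lower for 45 of 185 genes (24.3%; 13 with the B code) and higher for 2, with nhr-74 (-0.66), nhr-55 (-0.65) and nhr-45 (-0.58) in the lead. Chemoreceptors were lower for 16 of 105 measured genes, a share of 15.2% close to the 16.0% of all genes, and higher for 2, with srlf-35 (-0.71), srdh-1 (-0.69) and srlf-32 (-0.58). With the B code 4 of the 105 were lower, beside 4.52% of all genes.

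Median differences were small in housekeeping lists, although single members such as his-70 and alg-3, given above, had larger ones. Proteasome subunits had 3 of 33 higher (9.09% against 6.63% of all genes), namely rpn-9 (0.11), rpt-4 (0.09) and rpt-5 (0.08). Other scalings gave 7 higher with edgeR and TMM, 21 with edgeR on DESeq2 size factors, 21 with DESeq2 and 14 with raw TPM, and the B code 0. Of all 16232 genes these scalings called 1944, 2972, 2942 and 1763 higher, in that order. Argonaute and RNA interference genes had 14 of 39 higher (35.9% against 6.63% of all genes) and 1 lower. Among the higher ones were rde-8 (0.16) and mut-2 (0.16), both of the mutator complex that amplifies small RNAs. With the B code 1 of 39 was higher. edgeR and TMM called 18 of the 39 higher, and DESeq2 25. Histone genes had 0 of 63 higher and 4 lower (6.35% lower against 16.0% of all genes). Among the lower ones were his-41 (-0.39) and his-35 (-0.28), which were also called with the B code alone and with the scores alone. The median of the histone list was 0.13, with 44 of 63 differences positive. Higher were 8 with edgeR and TMM, 13 with edgeR on DESeq2 size factors and 13 with DESeq2, shares close to those of all genes. Cytosolic ribosomal protein genes had 7 of 81 lower (8.64% against 16.0% of all genes), led by rps-4, with rpl-11.2 at -0.43 and rpl-25.1 at -0.41. The call of rps-4 was lost over all annotated transcripts (-0.08, limma adjusted p = 0.250). The list median of -0.10 changed sign with size factors of the DESeq2 kind. None of the 12 genes tested on the mitochondrial genome was called in limma (0 at an unadjusted p under 0.05).

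Called genes lay unevenly over the chromosomes. On chromosome X 26.6% of the 2258 tested genes were lower in MY strains and 1.37% higher. Chromosome I had 12.3% lower and 12.3% higher of 2572 genes, and the other autosomes lay at 13.7% to 16.0% lower and 3.90% to 9.80% higher. The median difference was -0.18 on X and -0.02 on I. With the B code 176 X genes were lower and 9 higher, and without MY2585 1 was lower.

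**Figure D3:**
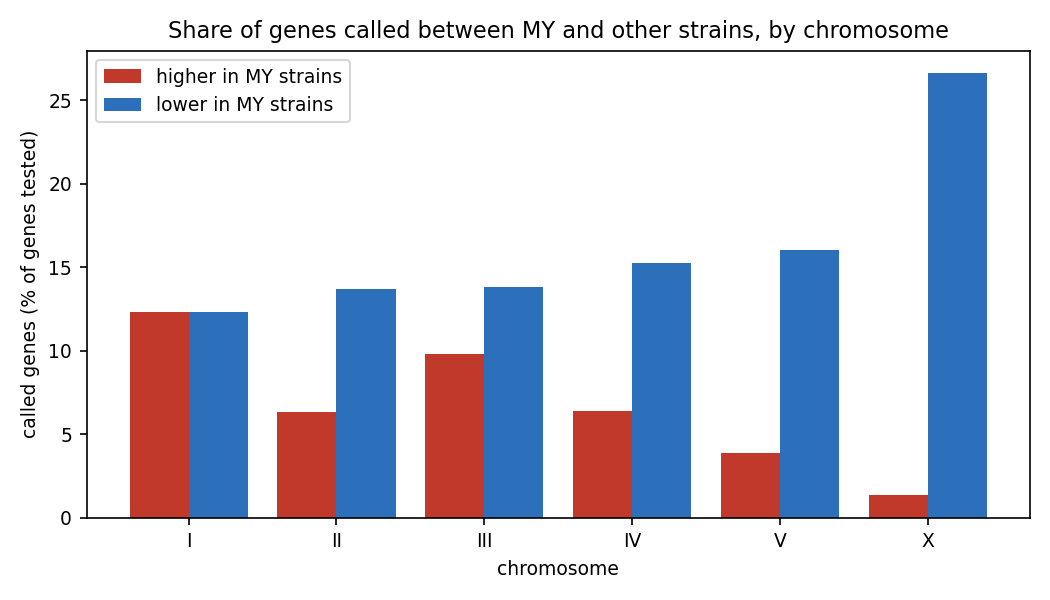
Share of tested genes called higher (red) or lower (blue) in MY strains, in percent, on each chromosome (limma, adjusted p under 0.05). Of the nuclear chromosomes X has the largest share of lower calls, 26.6%, and the smallest of higher calls, 1.37%.

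In every one of the 14 fits with 1 MY strain left out 9 genes were called, and these are the 9 called without MY2585. The other genes lost their call in that fit, which does not mean that their differences rest on MY2585. The median difference over all genes was -0.10 in both, 5685 genes had an unadjusted p under 0.05 without MY2585, and msp-50 (-2.0), col-88 (-1.30) and flp-7 (-0.78) had limma adjusted p = 0.0921, 0.0858 and 0.0611. Of the 9 genes 8 were lower and 1 higher in MY strains. All 9 were called with the B code alone and with the scores alone, and 7 with both together, where F52B10.3 and K05F1.10 had limma adjusted p = 0.0663 and 0.155. Positions are those of the WBcel235 genome.

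The first of them is C50F4.8, on chromosome V at 9517519 to 9518859, which encodes a protein with no role given here. It stood at 2.25 in MY518, 2.49 in MY795, 2.51 in MY2585, 2.79 in MY772, 2.87 in MY23, 2.96 in MY10, 3.15 in MY18, 3.36 in MY2147, 3.41 in MY16, 3.42 in MY920, 3.60 in MY2713, 3.81 in MY2212, 3.86 in MY1 and 3.97 in MY2573. The others ran from 2.66 over a median of 3.94 to 5.50, so 13 of 14 MY strains lay below that median and 3 below every other strain. The difference was -0.77 ± 0.15 (SE; limma adjusted p = 0.00283; smallest permutation p of 1e-05), and it lay between -0.83 and -0.70 with each MY strain left out. It was negative in all 4 B codes with at least 2 MY strains (-0.88 to -0.17) and in all 6 pools. Codes and pools divide the same strains from which the gene was called, so these signs are no separate test.

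ceeh-1, which encodes an epoxide hydrolase that breaks down lipid epoxides, is on chromosome III. It ran from 1.07 in MY16 over a median of 2.47 to 3.39 in MY1, against 1.33 to 4.89 (median 3.20) in the others, with 13 of 14 MY strains below that median. The difference was -0.74 ± 0.16 (SE; limma adjusted p = 0.00813), negative in all 4 codes (-1.73 to -0.35) and all 6 pools. MY16 at 1.07 and MY23 at 1.69 were the lowest MY strains.

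F17C11.2 on chromosome V had the largest difference of the 9, -1.12 ± 0.21 (SE; limma adjusted p = 0.00283), with -0.34 to 3.12 (median 1.74) in MY strains against -0.40 to 4.41 (median 2.95) in the others. K05F1.10 on II (-0.99 ± 0.21), F52B10.3 on X (-0.61 ± 0.12), Y105C5A.24 on IV (-0.52 ± 0.11) and M05D6.5 on II (-0.35 ± 0.07) were the further lower genes, and each lay below the median of the others in 12 or 13 MY strains. For M05D6.5 the MY strains ran from 5.47 to 6.16 and the others from 5.39 to 6.82. Over the same codes and pools, the difference of F52B10.3 was negative throughout. It was positive in 1 of 4 codes for K05F1.10 and for Y105C5A.24. In 1 of 6 pools it was positive for F17C11.2, K05F1.10 and M05D6.5.

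A few strains carried much of the last 2. ZK228.3 on chromosome V was at -0.93 in MY2713, with 2 of its 3 cultures at -1.0, while the lowest other strain was at 2.78. In the remaining 13 MY strains it ran from 3.22 to 4.90, and the difference of -0.83 ± 0.17 (SE) shrank to -0.49 without MY2713. Within codes and pools it was positive in 2 of 4 codes and 2 of 6 pools. For ZK228.3 the unadjusted p was 1.6e-06 in limma and 5e-05 by permutation. The pseudogene WBGene00015439, also on V, was at 1.02 in MY16, 0.52 in MY795, 0.36 in MY18 and -0.03 in MY1, and between -1.0 and -0.84 in the other 10 MY strains. Of the other strains 191 of 193 lay below 0. Within codes and pools the difference of this pseudogene was negative in 1 of 4 codes and 1 of 6 pools. The difference of WBGene00015439, 0.34 ± 0.07 (SE; limma adjusted p = 0.00283), thus came from 4 of 14 strains. Its SD was 0.69 in MY strains and 0.17 in the others. The unadjusted p was 4.9e-07 in limma, which takes 1 SD for both groups, and 0.00027 by permutation.

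**Figure D4:**
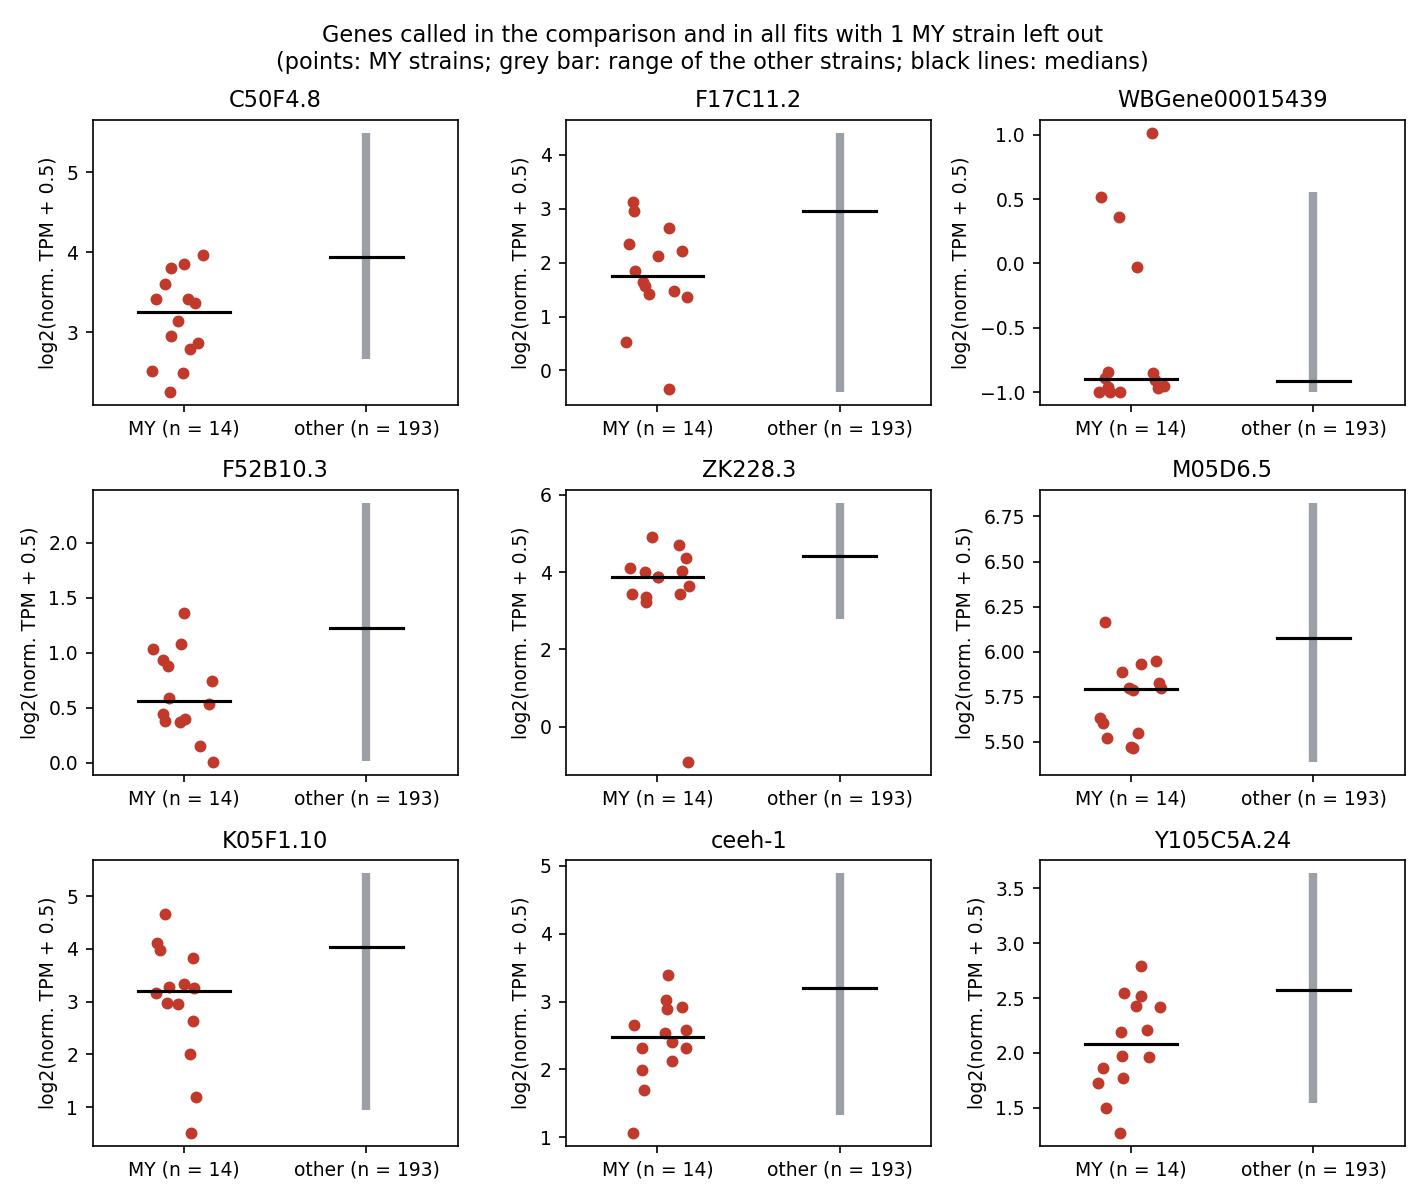
Levels of the 9 genes called with all strains and in each of 14 fits with 1 MY strain left out, as log2(normalized TPM + 0.5) (red points: MY strains; grey bar: range of the 193 other strains; black lines: medians). The MY median lies below that of the others in 8 panels, and the group ranges overlap in all 9.

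The fit with scores called 65 genes, these 9 among them. Several of the rest have known roles, and those named in the next 3 sentences were chosen after their values were seen. xbp-1, the transcription factor of the endoplasmic reticulum stress response, had a difference of -0.25, and pck-1, which encodes an enzyme of gluconeogenesis, -0.69. tyr-1, a tyrosinase gene, had -0.61, and dpy-31, a protease that processes collagens, -0.53. drh-3, a helicase of the small RNA pathway, was higher by 0.14, but missed the threshold with the B code (limma adjusted p = 0.0599). Each was called in all fits with 1 MY strain left out but that without MY2585.

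Genes known to carry natural variants of large effect gave strain patterns rather than shifts of the whole set. Of 18 measured, 2 were higher (zeel-1 0.27, drh-1 0.11) and 4 lower (exp-1 -0.20, tyra-3 -0.20, glb-5 -0.17, dbt-1 -0.12), with a list median of -0.06 that changed sign with size factors of the DESeq2 kind. Fitting the B code left 0 lower (limma adjusted p = 0.167 for exp-1) and 2 higher, zeel-1 and sup-35, and with raw TPM 0 were lower. plg-1, the mucin gene behind the copulatory plug, was at -1.0 in MY1 and -0.93 in MY2713 and at 3.63 to 6.65 in the other 12 MY strains. Of the other strains 22 of 193 (11.4%) lay below 0, and the difference of 0.13 ± 0.65 (SE) was not called (limma adjusted p = 0.875). peel-1, a sperm-delivered toxin, and zeel-1, the linked antidote, were both at -1.0 in MY1, MY23 and MY518. Low values were common for both genes. zeel-1 lay below 0 in 12 of 14 MY strains and 189 of 193 others (97.9%), so its higher call concerns levels near 0 TPM. For peel-1 these counts were 9 of 14 and 94 of 193 (48.7%). peel-1 reached 2.77 in MY2573, 2.36 in MY2212 and 1.76 in MY920, the strains with the most sperm transcripts.

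The remaining variant genes did not pass the test on strain means. sup-35, a maternal toxin gene, was at 3.28 to 4.83 in MY strains and so never near 0, whereas 11 of the 193 others (5.70%) lay below 0 (difference 0.62, limma adjusted p = 0.0659, and 0.0263 with the B code), and its antidote pha-1 differed by 0.02. glc-1, a glutamate-gated chloride channel and target of avermectins, ran from 0.19 in MY10 to 3.05 in MY23 (difference -0.20). ben-1, the beta-tubulin targeted by benzimidazoles, had 3.02 to 4.69 in MY strains against 2.37 to 5.21 in the others (difference -0.29, limma adjusted p = 0.0861). The differences of npr-1 (-0.08), peel-1 (-0.18), ppw-1 (0.15), scb-1 (-0.14), set-24 (0.07), tra-3 (-0.04) and nath-10 (-0.03) were likewise not called.

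Each MY strain had a gene that set it farthest from all other strains, and some of these depended on which transcripts were summed. In MY10 C06C3.10 was at 5.43 and 5.56 in its 2 cultures, and the next strain was at 2.89. In MY2147 tre-5, a trehalase gene, was at 4.60 to 4.80 in 3 cultures, and the next strain was at 2.60. In MY2585 T28D6.3 was at 0.49 to 1.5, below the 2.99 of the next strain. In MY920 enpp-1 was at -1.0 in all 3 cultures, and the lowest other strain was at 0.95. These held when all annotated transcripts of a gene were summed, as did ZK228.3 in MY2713.

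For stn-1, trap-3, nhr-40 and C56C10.9 the values changed with the transcripts summed. In MY1 stn-1, a syntrophin gene, was at -0.99 over the reliably expressed transcripts and at 2.13 over all transcripts, above the lowest other strain (1.61). trap-3, which encodes a subunit of the translocon-associated protein complex, was at 1.80 in MY518, with cultures at -0.03, 0.05 and 5.39, and at 6.95 over all transcripts, still below the lowest other strain at 8.64. nhr-40 in MY795 went to 2.40 over all transcripts and was no longer beyond the lowest other strain (2.08). In MY772 C56C10.9 had -0.74 and 2.0 in its 2 cultures, and 1.79 and 2.0 over all transcripts, below the 4.24 of the next strain. In MY18 Y57A10A.13 was at 4.75 in 1 culture and at -0.81 and -0.90 in the other two, so cultures of a single strain disagreed by more than 5 log2 units and the strain mean of 1.01 describes none of them. These values were the same over all transcripts. Over all genes cultures 1 and 2 of MY18 were at a distance of 56.4 from each other, and culture 3 was at 78.2 and 78.6 from them. Whether the 3 cultures hold the same genotype was not tested, so every MY18 mean rests on the labels.

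The leading genes of the remaining strains had small gaps. F36A2.2 in MY16, lon-1 in MY23, R11G1.7 in MY2573 and WBGene00044808 in MY2212 stood 0.49, 0.37, 0.84 and 0.34 from the next strain. Over all genes, MY strains had 0 to 4 genes that stood at least 1 log2 unit beyond every other strain (median 1), and other strains 0 to 117 (median 2).

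**Figure D5:**
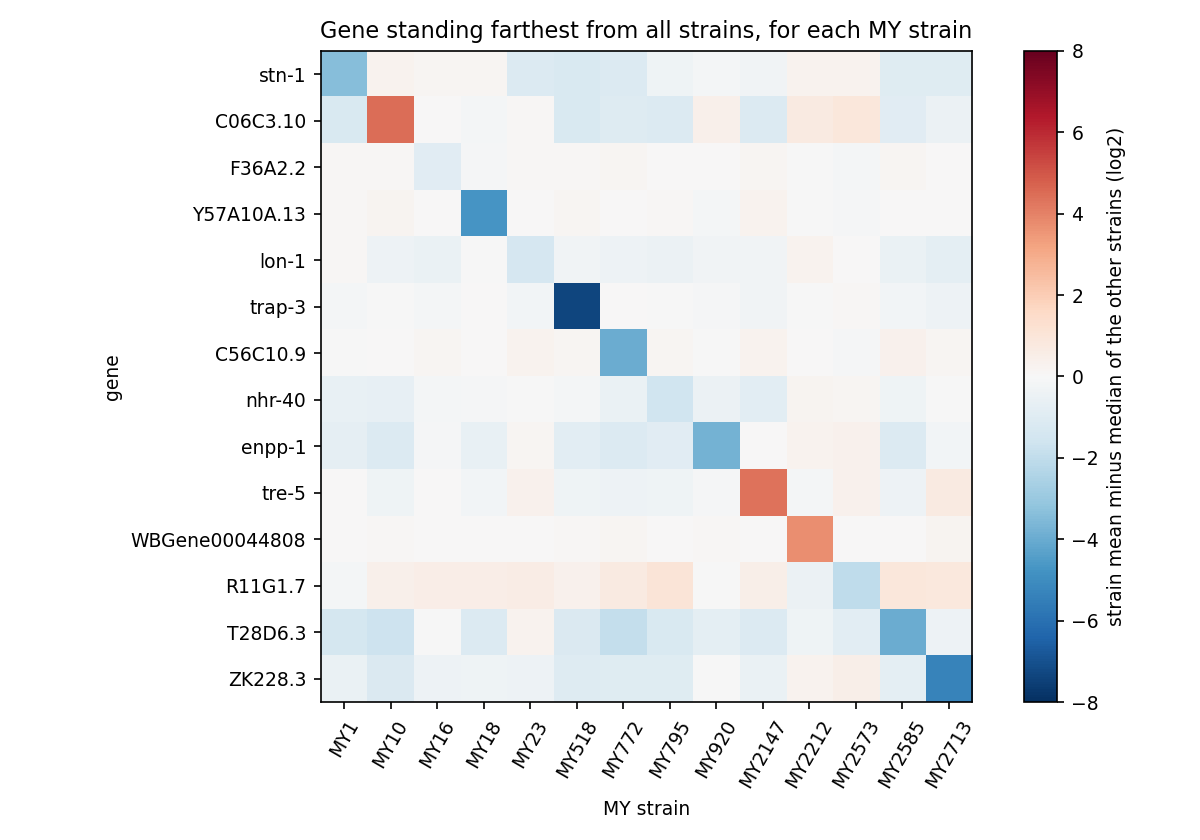
For each MY strain (columns) the gene standing farthest from all other strains (rows), as the strain mean minus the median of the 193 strains outside the set, in log2 units over reliably expressed transcripts. The deepest cells lie on 1 strain each, with trap-3 in MY518 and ZK228.3 in MY2713 among the deepest.

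MY16 and MY23 shared more extreme genes than any other MY pair. They were each other's nearest strain over all genes, at a Euclidean distance of 58.5, also with the B code regressed out, and both had cultures coded B1, B6 and B6. The distance itself was not small, since the median from an MY strain to its nearest strain was 55.4 and MY518 and MY795 were 55.4 apart. In all 65 genes set the pair at least 1 log2 unit beyond the other 12 MY strains (35 lower, 30 higher), against a median of 0 over all 91 MY pairs and 22 for the next pair, MY2212 and MY2573. math-44 was at 3.51 in MY16 and 3.36 in MY23, while 177 of the 193 other strains (91.7%) and the other 12 MY strains lay below 0. acdh-2, an acyl-CoA dehydrogenase gene chosen after its values were seen, was at -0.88 in MY16 and -0.92 in MY23 against a median of 5.17 in the remaining MY strains. msp-19 and both nspa-7 loci were at -1.0 in MY16 and MY23, whereas nspa-2, a relative of nspa-7 and also named after the fact, was at 10.6 and 10.3 against 0.56. Members of these families share sequence, and assignment of reads between copies was not tested. Per the paper, poor alignment in hyper-divergent regions could make levels too low. Such regions were not removed here, and whether low genes of the pair lie in them was not tested.

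The ribosomal protein gene rps-4 shows the same dependence on transcripts. Over reliably expressed transcripts it was at 5.69 in MY16 and 5.15 in MY23 against 11.07 to 11.91 in the other 12 MY strains, and the difference of -0.81 was called. Over all annotated transcripts it was at 11.4 in MY16 and 11.2 in MY23, and the difference was -0.08 (limma adjusted p = 0.250).

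Distances over all genes described the MY strains as a set. The mean Euclidean distance among them was 95.7, against 105 from MY to other strains and 103 among the others (permutation p = 0.272, above the threshold). The 3 strains with B2 cultures were at 67.2 from each other on average and the remaining 11 at 78.5, and the distance between these sets was 127. For 3 of 14 MY strains the nearest strain was another MY strain, namely MY16, MY23 and MY795 (nearest to MY518). The nearest strain of MY518 was CX11314 at 53.9, that of MY1 ED3048 at 54.2 and that of MY10 QW947 at 62.8. At the level of cultures, 23 of 38 MY cultures had a culture of their own strain as the nearest, 6 that of another MY strain and 9 that of a strain outside the set. Genes varied less among MY strains than among the others, with a median SD of 0.285 in MY strains against 0.369 in the others, given as a description.

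Transposable elements, measured by their consensus sequences, were not called. Of 103 elements that passed the expression filter 0 had an adjusted p under 0.05 in limma, with 11 at an unadjusted p under 0.05. RTE1, a LINE element, had the smallest p, at 1.47 ± 0.39 in MY strains against 1.94 ± 0.51 in the others (SD; difference -0.47, limma adjusted p = 0.0980), and its MY values ran from 0.58 in MY2713 to 2.05 in MY10. Pool as a fixed effect with strain as block gave 2 calls, and the B code 4.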

How the data were processed

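The authors deposited Kallisto (0.44.0) output per transcript for 609 cultures, as estimated counts and as TPM that were not scaled between cultures. Per the methods, reads trimmed with fastp (0.20.0) were pseudoaligned to a WS276 transcriptome carrying the single nucleotide variants of each strain, plus transposable element consensus sequences. The members and gene lists were chosen with earlier results of these data known.

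Here transcripts with at least 5 normalized counts in all cultures of at least 10 strains were kept (26341 transcripts), and their TPM were summed over 16232 genes, named from Ensembl, and divided by median-ratio factors. The removal of divergent regions per strain was not repeated, and whether genes low in single strains lie in them was not tested. Cultures were selected by running the study's distance rule again on the genes kept here (559 of 608 kept, a number that differs slightly from the paper's). JU2800, with 1 culture, was left out. Strain means of log2(normalized TPM + 0.5) were compared with limma (3.58.1, R 4.3.3; trended prior, two-sided, Benjamini-Hochberg over all genes). Scores, distances and named genes were tested by two-sided permutation of strain labels (100000 resamples). edgeR (4.0.16) and DESeq2 (1.42.0) ran on summed counts rounded to whole numbers. Scripts were tested on simulated data. Counts per kept culture ranged from 15461168 to 280262722. Cultures were grown independently, per the methods.

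Genes named are the 12 largest changes each way, up to 3 called members of each list with the largest differences (or the one with the smallest adjusted p), the most separate gene of each MY strain, and all natural-variant genes. Alternatives were other tools, pseudocounts, filters, transcript sums, cultures, comparison strains, pools, scores as covariates and each MY strain or culture left out. Fits with the B code were added after seeing the data. Symbols of the mitochondrial list matched no gene, so the 12 mitochondrial genes were counted by chromosome.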

Additional observations from a re-analysis of the deposited data

How the results depend on the processing

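Against 1076 genes higher and 2598 lower in MY strains, edgeR gave 1944 higher with TMM and 2972 with DESeq2 size factors, and DESeq2 gave 2942 higher, all with lower counts within 1.5 times. Raw TPM gave 1763 higher and 1572 lower, all cultures 565 and 1449, all cultures with JU2800 581 and 1482, JU strains as the only comparison 2179 and 5022, and NIC strains 183 and 485. Scores as covariates left 8 and 57. Pool with strain as block gave 4641 lower. Of alternatives added after seeing the data, the B code gave 246 and 734, with pool 104 and 404, with scores 37 and 62, strains with no B2 culture 2392 and 5876, and B6 cultures 0 and 0 (5467 at an unadjusted p under 0.05 in limma). Leaving out 1 MY strain or 1 culture per strain gave 1 to 2103 higher and 8 to 5165 lower. With the third culture left out in strains with 3, 46 were higher and 202 lower. The cause was not tested.

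With pool but not the B code regressed out, the sperm (-0.71), oocyte (0.20), embryonic (0.24) and germ line (0.088) scores passed the threshold in permutation tests. The yolk score changed sign with all cultures (-0.018). Elements called were 2 with pool and 4 with the B code. Y57A10A.13 changed sign under edgeR (0.042 with TMM, 0.076 with size factors), DESeq2 (0.076) and in B6 cultures (0.080), and ran from -0.40 without the first cultures to 0.067 without MY18, and math-44 under DESeq2 (-0.37). The distance among MY strains missed the threshold in all 5 settings. No paired analysis was possible because cultures are numbered within a strain, so a number links no cultures of different strains. Levels near -1.0 rest on few or no reads.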
